A study of Mus musculus with 6 samples.

Results

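The genes described here are the nuclear-encoded subunits of the mitochondrial respiratory chain, as counted in RNA from leukaemic mouse spleen. They were chosen by symbol alone: protein-coding genes whose symbols begin with Ndufa, Ndufb, Ndufc, Ndufs or Ndufv and a digit (complex I), the genes Sdha to Sdhd (complex II), and genes whose symbols begin with Uqc (complex III), Cox4 to Cox8 (complex IV) or Atp5 (complex V). The patterns matched 94 of the 40808 gene IDs in the table, and 4 of the matches were pseudogenes and were dropped (Ndufs5-ps, Ndufa11b, Ndufs6b and Cox7c-ps1). The 90 members left were 40 of complex I, 4 of complex II, 8 of complex III, 3 assembly factors of complex III with Uqcc symbols, 18 of complex IV and 17 of complex V. Complexes were assigned by symbol, so Ndufa4, which is now placed in complex IV, stayed with complex I. The rule uses no measured value, but it was set with earlier results of these data known.

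All mice had received a bone marrow transplant, and the RNA came from leukaemia cells of the spleen, per the labels' protocols. The 2 groups were 3 libraries from mice not given Dox (replicates 4, 5 and 6) and 3 libraries from mice on Dox (replicates 10, 11 and 12). The labels do not spell out Dox, and they state no dose, duration, target gene, strain, sex or age, nor what the transplanted cells carried. They also do not say whether each library came from its own mouse, so p-values here measure the spread between these libraries, which may be technical. The study's title concerns UVRAG, ITCH and the ESCRT machinery as regulators of NOTCH.

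In the respiratory chain, complex I takes electrons from NADH and complex II from succinate, and both pass them to ubiquinone. Complex III hands them to cytochrome c, complex IV passes them to oxygen, and complex V, the ATP synthase, uses the proton gradient built by complexes I, III and IV to make ATP. Most subunits are encoded in the nucleus and imported, while a smaller set that includes the catalytic centres of complexes III and IV is encoded in mitochondrial DNA. The chain is found in nearly all nucleated cells of the spleen and is lost from mature red cells, so its transcripts do not mark a cell type.

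Total counts were 5541486 to 7729988 without Dox and 6498193 to 8725767 with Dox, and 3 counts corresponded to between 0.309 and 0.608 normalized CPM, which are counts per library size, with TMM factors for composition. The groups differed in cell markers as well as in Dox. Summed over 10 T cell markers, normalized CPM were 1749 to 1875 without Dox and 199 to 270.1 with Dox; 8 of the 10 fell, and Ptcra, the pre-T cell receptor alpha chain, had 0 counts in Dox replicates 11 and 12. All 8 B cell markers rose, from a summed 29.2 to 36.6 up to 1681 to 1801, and 7 of 10 myeloid markers rose, with the neutrophil gene Ly6g at 0 counts in all 3 libraries without Dox, while the macrophage gene Adgre1 fell. The 10 myeloid markers summed to 195 to 196 without Dox and 1891 to 2047 with Dox. Erythroid markers summed to 57527 to 62787 and 69894 to 75236, platelet markers to 58.8 to 69.8 and 206 to 263, and stromal markers to 138 to 161 and 174 to 238. Counts of 4 Y-linked genes were 545 to 801 without Dox and 0 in each Dox library, while Xist had 193 to 324 and 3347 to 5669 counts, so the groups also differed in sex-linked transcripts. Of genes counted between 1 and 30 times, 27.9% to 43.0% had at most 3 counts in the libraries lacking Dox, against 15.04% to 16.02% in the Dox libraries, which thus held fewer very low counts. The part of cell makeup, sex or library quality in the results below was not tested, and in bulk RNA fewer cells of a type and less RNA per cell cannot be told apart.

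Transcripts of the respiratory chain were lower with Dox in all 5 complexes. Summed over the 90 members, normalized CPM were 24912, 23829 and 22490 without Dox, against 5781, 6280 and 5792 with Dox. Every Dox library lay below every library without Dox, and the means of 23744 ± 1213 and 5951 ± 285 (SD, n = 3 each) differed 3.99-fold. As a share of all raw counts, which uses no scaling factor, the members took 2.16%, 2.12% and 2.08% without Dox and 0.654%, 0.699% and 0.621% with Dox. The raw shares did not overlap either, and differed 3.22-fold.

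Of the 90 members, 84 passed the filter on low counts and were tested with edgeR's quasi-likelihood test, with Benjamini-Hochberg adjustment over all 14110 genes tested. At an adjusted p under 0.05, 76 of the 84 fell with Dox and 0 rose. Over all tested genes, 22.1% fell and 23.6% rose, 45.6% in either direction, and with no composition factor 16.7% fell and 30.2% rose, while 75 members fell and 1 rose. The 76 had log2 fold changes from -4.70 to -0.78 and adjusted p-values from 5.37e-07 to 0.0123. Their groups did not overlap, and 2 further members, Ndufa11 and Cox6a2, also had each Dox library below each library without Dox, giving 78 members against 29.6% of all tested genes. Cox7a2l was the 1 member with every Dox library above every library without Dox, an order found in 30.0% of all genes tested. Of the 84, 72 passed the test with a log2 fold change under -1, against 18.4% of all genes, and 47 with one under -2, against 8.10%. The median log2 fold change was -2.18 (quartiles -2.66 and -1.44) over the tested members and 0.07 over all tested genes. The 8 members that did not pass were Ndufs1, Ndufa2, Ndufa11, Uqcc1, Cox6a2, Cox6b2, Cox7a2l and Atp5g2, with log2 fold changes between -1.34 and 0.34 and adjusted p-values between 0.0627 and 0.568. The 6 untested members, all with few or no counts, were Ndufa4l2, Cox4i2, Cox7a1, Cox7b2, Cox8b and Cox8c. Over the tested members, the median coefficient of variation between libraries of a group was 9.21% without Dox and 22.7% with Dox, against 18.8% and 33.2% over all tested genes.

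**Figure D1:**
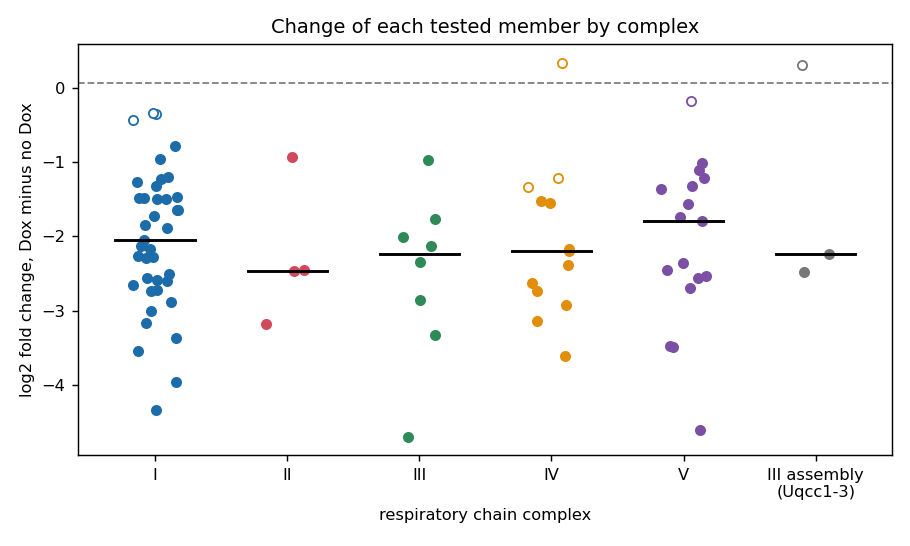
Log2 fold change, Dox against no Dox, of each tested member (points; filled where it passed the test, open where it did not), by complex, with the median of each complex (black line) and of all tested genes (dashed line). Of 84 members, 76 fell and 0 rose at an adjusted p under 0.05, and the median over the members was -2.18.

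Short transcripts as a class were lower with Dox, and respiratory chain transcripts are short. The median transcript length was 742 bases over the tested members and 2705 bases over all tested genes. A smoothed trend across the 11992 tested genes with a known length (85.0%) passed through a log2 fold change of -1.50 at 400 bases, -0.82 at 1000 bases, -0.19 at 2000 bases and 0.41 at 5000 bases, with a median of -1.07 at the lengths of the members. With that trend subtracted, 57 of the 81 members with a length fell, against 21.7% of all genes. The median over the members was -1.01 in place of -2.18. All 57 were among the 73 members with a length that had fallen before. In that fit 6 of the 81 rose (Ndufa2, Ndufa3, Ndufa11, Uqcrh, Cox7a2l and Atp5g2), against 22.0% of all genes, and 4 of the 73 changed sign. The members that fell therefore lay mostly, though not all, below other transcripts of their own length, and for the members described below the value with the trend removed is given where it ends or turns the call and where it moves the size most. Why length and the change with Dox went together was not tested.

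**Figure D2:**
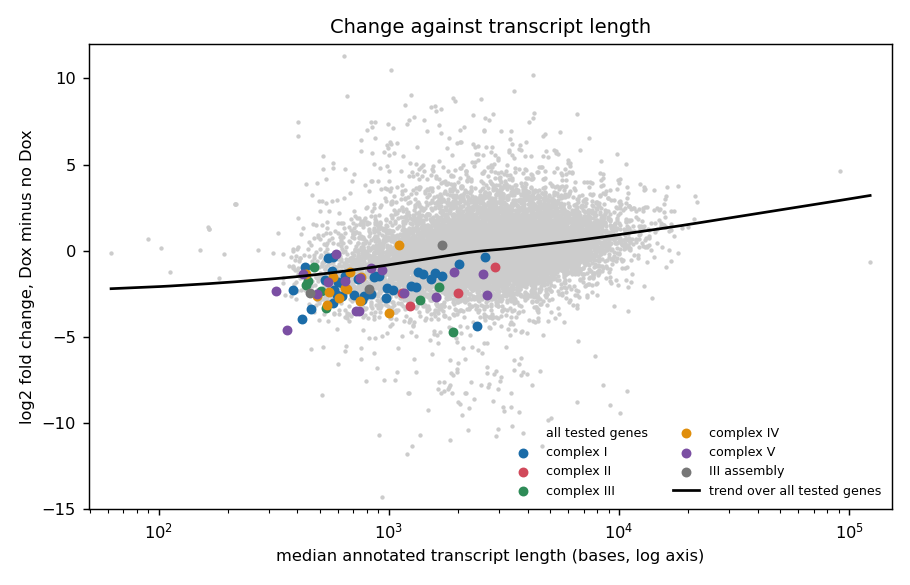
Log2 fold change with Dox against transcript length (log axis, bases) for all tested genes with a length and for the members, with the smoothed trend. Of the 81 members with a length, 57 still fell with Dox after the trend was subtracted and 6 rose.

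Mitochondrially encoded subunits of the same complexes are not analysed here. The 2 mitochondrial ribosomal RNAs, used as transcripts of the mitochondrial genome that the table does hold, made up 7.33%, 5.43% and 4.03% of raw counts without Dox and 4.76%, 4.80% and 6.52% with Dox. These shares overlapped between the groups, unlike those of the nuclear members. The ratio of summed member counts to mitochondrial ribosomal RNA counts was 0.295, 0.391 and 0.517 without Dox, against 0.137, 0.146 and 0.0953 with Dox, with no overlap. The kit primes on poly(A) tails, so ribosomal RNA counts need not follow the amount of mitochondrial genome transcripts.

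Summed levels of the complexes fell 3.69-fold to 4.58-fold. Complex I summed to 7481, 7292 and 6821 normalized CPM without Dox and 1835, 2015 and 1787 with Dox, and its means of 7198 ± 340 and 1879 ± 120 (SD, n = 3 each) differed 3.83-fold. Complex II, the smallest, went from 465, 478 and 568 to 129, 135 and 125, a 3.89-fold difference of means. Complex III went from 1902, 1821 and 1663 to 479, 532 and 448, which is 3.69-fold. In each of these 3 complexes all Dox libraries lay below all others. Complex IV had 6451, 5862 and 5192 without Dox and 1191, 1411 and 1223 with Dox, a 4.58-fold difference, and complex V had 8426, 8209 and 8100 against 2093, 2131 and 2136, a 3.89-fold difference. By summed level, complex IV thus showed the widest gap between group means and complex III the narrowest. By median log2 fold change, complex II fell the most (-2.46) and complex V the least (-1.80), and with the length trend removed the medians ran from -1.99 for complex II to -0.92 for complex I. As shares of the members' summed CPM, complex IV took 24.5% ± 1.40 without Dox but 21.4% ± 0.968 on Dox (SD, n = 3 each), complex I 30.3% ± 0.287 and 31.6% ± 0.634, and complex III 7.56% ± 0.141 and 8.17% ± 0.378, and none of these 3 pairs of groups overlapped. The shares of complex II (2.13% and 2.18%) and complex V (34.8% and 35.7%) overlapped. The differences between complexes were not tested.

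**Figure D3:**
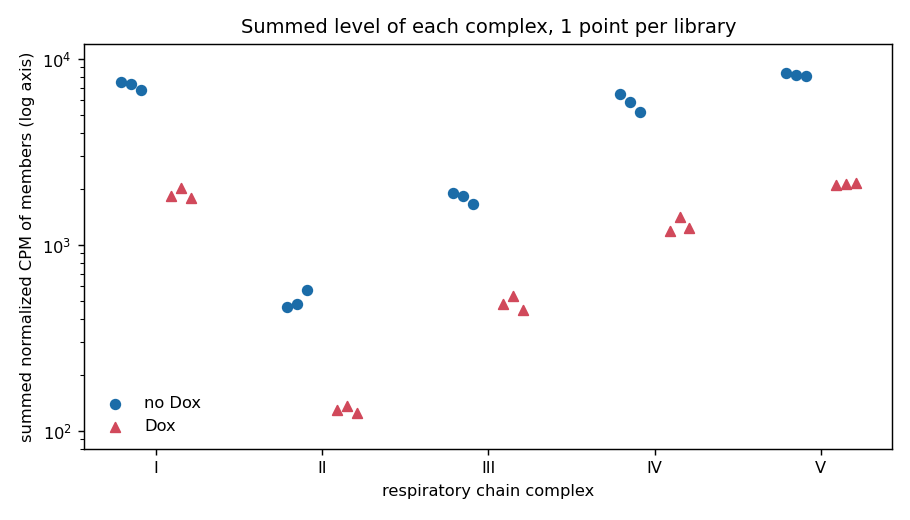
Summed normalized CPM of the members of each complex in each library (log axis; 1 point per library, circles without Dox and triangles with Dox). For each complex the 3 Dox libraries lie below the 3 libraries without Dox, with ratios of group means from 3.69 for complex III to 4.58 for complex IV.

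In complex I, 36 of 39 tested members fell and 0 rose, with a median log2 fold change of -2.05. With the length trend removed, 25 of 36 fell and 3 rose, with a median of -0.92. The 7 core subunits of the peripheral arm, which hold the flavin and the iron-sulphur clusters and meet ubiquinone, had a median of -1.65, and 6 of them fell. Among the 31 accessory subunits, which surround the core and hold it together, the median was -2.05 and 29 fell. With the length trend removed the order was reversed, with a median of -1.19 for the core and of -0.76 for the 28 accessory subunits that had a length. Ndufb4, Ndufb4b and Ndufb4c are near-identical copies and Ndufs5 has the close pseudogene Ndufs5-ps, so their counts are uncertain. The dropped pseudogene Ndufs6b had 326, 307 and 370 counts without Dox and 749, 640 and 347 with Dox. Ndufs6 changed by -1.20, and by 0.09 with the length trend removed, which did not pass. Counts of this pair may be uncertain too. Without Ndufb4b, Ndufb4c and Ndufs5, but with Ndufb4 and Ndufs6 kept, 33 of 36 fell and the median was -1.96.

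Ndufb2, an accessory subunit of the membrane arm, had 219, 212 and 188 normalized CPM without Dox and 8.98, 4.22 and 17.5 with Dox. All 3 Dox libraries were far below the others, and replicate 12 was the highest of them. The log2 fold change was -4.34 (SE 0.43, adjusted p = 3.45e-05), or -5.02 without Dox replicate 12. Ndufa1, an X-linked accessory subunit of the membrane arm that is needed for assembly, had 259.5, 235 and 204 without Dox and 17.7, 24.8 and 1.71 with Dox. Dox replicate 12 was the lowest here, and the groups did not meet. Its log2 fold change was -3.97 (SE 0.64, adjusted p = 0.000739), -4.61 without Dox replicate 11 and -2.47 with the length trend removed. Ndufb3, the member of complex I with the highest mean, went from 423, 473 and 451 to 71.2, 70.9 and 39.5. The Dox libraries spread, with replicate 12 the lowest, but all lay far below the rest. The fold change was -2.89 (SE 0.24, adjusted p = 1.20e-05), and -1.82 with the length trend removed.

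The core subunits spread from clear falls to no call. Ndufs3 and Ndufs8, both part of the arm that leads to ubiquinone, fell by 2.27 and 2.18. Ndufv2 and Ndufv1, parts of the module that oxidizes NADH, fell by 2.14 and 1.65. After removal of the length trend, Ndufs3 was at -1.47, Ndufs8 at -1.32 and Ndufv2 at -1.54. Ndufs7, which lines the ubiquinone site, fell by 1.48 and did not pass the test with the length trend removed (-0.52). Ndufs1, the largest subunit of the peripheral arm and a carrier of iron-sulphur clusters, had 64.9, 64.9 and 56.3 normalized CPM without Dox and 49.5, 74.2 and 23.2 with Dox. Its Dox libraries lay on both sides of the others, and the change of -0.34 did not pass (SE 0.35, adjusted p = 0.459).

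Ndufa2 and Ndufa11 stood out among the accessory subunits of complex I. Ndufa2, a small subunit of the NADH-oxidizing module, had 282, 248 and 239 normalized CPM without Dox and 249, 194 and 162 with Dox. The highest Dox library lay within the other group. The change of -0.35 did not pass (SE 0.19, adjusted p = 0.156), whereas it passed at -0.55 without Dox replicate 10 and was turned to 0.95 by removing the length trend. Ndufa11, a membrane arm subunit, had 111, 104 and 106 against 75.4, 100.04 and 61.9, with no overlap. Its change of -0.44 did not pass either (SE 0.20, adjusted p = 0.105). It passed as a fall at -0.67 without Dox replicate 11 and at -0.58 with no filter on low counts, and as a rise at 0.89 with the trend removed. Ndufa3, also of the membrane arm, fell by 0.96 in the fit without a length term and rose by 0.52 with it.

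All 4 genes of complex II, which is succinate dehydrogenase and belongs to the citric acid cycle as well, fell with Dox, and all 4 still fell with the length trend removed (median -2.46, and -1.99 with the trend removed). The complex has 2 catalytic subunits, Sdha with the flavin and Sdhb with the iron-sulphur clusters, and a membrane anchor made of Sdhc and Sdhd. Sdha had 115, 105 and 147 normalized CPM without Dox and 53.1, 71.3 and 67.6 with Dox. Its Dox libraries were the lower ones, by a smaller margin than for the other 3 genes, at a log2 fold change of -0.94 (SE 0.20, adjusted p = 0.0039). Sdhb had 219, 222 and 254 against 49.4, 36.6 and 40.3, which is far apart, and changed by -2.46 (SE 0.18, adjusted p = 6.89e-06), and by -1.74 with the trend removed. The ratio of Sdha to Sdhb counts was 0.525, 0.473 and 0.581 without Dox, against 1.07, 1.95 and 1.68 with Dox. All 3 Dox libraries therefore had more Sdha than Sdhb counts and all 3 others fewer, a difference that was not tested.

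Sdhc had 91.5, 99.1 and 109.5 normalized CPM without Dox and 15.9, 22.6 and 15.6 with Dox, and changed by -2.47 (SE 0.22, adjusted p = 1.95e-05). Its partner Sdhd had 39.1, 52.1 and 58.0 against 10.9, 4.53 and 1.05. The Dox libraries of Sdhd spread widely, but none came near the other group. It changed by -3.18 (SE 0.60, adjusted p = 0.00187), or by -4.13 without Dox replicate 10 and -2.53 with the trend removed.

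In complex III all 8 tested subunits fell, with a median log2 fold change of -2.24, and with the length trend removed 6 of 8 fell and 1 rose, with a median of -1.35. Uqcrc2, one of the pair of large core proteins on the matrix side, had raw counts of 126, 80 and 77 without Dox and 0, 7 and 8 with Dox. It was the least abundant subunit of the complex in every library and nearly undetected with Dox. Its log2 fold change was -4.70 (SE 0.77, adjusted p = 0.00078), and -5.30 without Dox replicate 12. The other core protein, Uqcrc1, fell by 2.13, and Uqcrfs1, the Rieske iron-sulphur protein, fell by 2.86. Uqcrb, a small subunit near the ubiquinone sites, had 249, 262 and 228 normalized CPM without Dox and 32.3, 18.4 and 22.8 with Dox. With groups this far apart it changed by -3.33 (SE 0.23, adjusted p = 4.85e-06), and by -1.99 with the trend removed.

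The other small subunits of complex III fell less than Uqcrb. Uqcrq went from 389.8, 399 and 308 normalized CPM to 62.9, 84.6 and 68.3, a change of -2.34 (SE 0.19, adjusted p = 1.02e-05), or -0.96 with the trend removed. Uqcrh, the acidic hinge protein that helps cytochrome c dock, had 434, 436 and 425 without Dox and 231, 239 and 189 with Dox. It had the highest level of the complex in both groups, and its log2 fold change was -0.97 (SE 0.15, adjusted p = 0.000581). Removing the length trend turned this change to 0.45. Uqcr11, a small membrane subunit, changed by -1.76 (adjusted p = 0.000119), and by -0.30 with the trend removed, which did not pass.

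The 3 Uqcc genes make assembly factors that act early in building complex III, around cytochrome b. Uqcc2 had 92.7, 79.2 and 64.3 normalized CPM without Dox and 11.2, 20.8 and 10.3 with Dox, and changed by -2.47 (SE 0.31, adjusted p = 0.000144). Uqcc3 had 68.9, 63.4 and 50.5 against 10.9, 14.4 and 13.3, and changed by -2.24 (SE 0.24, adjusted p = 5.52e-05). For both genes the groups lay well apart, and with the length trend removed the changes were -1.02 for Uqcc2 and -1.23 for Uqcc3. Uqcc1 had 27.0, 24.3 and 30.7 against 32.0, 21.1 and 48.9, with Dox libraries on both sides of the others. Its change of 0.31 did not pass (SE 0.31, adjusted p = 0.447) and was -0.064 without Dox replicate 12.

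In complex IV, cytochrome c oxidase, 10 of 13 tested members fell and 0 rose, with a median log2 fold change of -2.20. These 10 were all 10 of the widely expressed isoforms, with a median of -2.51, and 8 of the 10 changed by less than -2. With the length trend removed, 8 of the 13 fell, 1 rose, and the median was -1.01. Cox7c, the most abundant member of the complex without Dox, had 1044, 934 and 863 normalized CPM without Dox and 143, 158 and 22.8 with Dox. Dox replicate 12 was far below the other Dox libraries, and all 3 were below the rest, at a change of -3.13 (SE 0.55, adjusted p = 0.00126). Counts of its pseudogene Cox7c-ps1 went from 8212, 6492 and 9615 to 1548, 2237 and 332, so reads may be split between the copies and both values are uncertain. Cox7b, which is X-linked, had 663, 581 and 467 against 36.2, 58.0 and 46.0. This gap was the widest of the complex, at -3.61 (SE 0.23, adjusted p = 3.15e-06). Cox6c had 956, 790.4 and 622 against 80.02, 131 and 143, also far apart, and changed by -2.74 (SE 0.25, adjusted p = 2.36e-05). These 3 genes still fell with the length trend removed, with changes of -1.80 (Cox7c), -2.76 (Cox7b) and -1.49 (Cox6c).

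The remaining widely expressed subunits of complex IV fell, with log2 fold changes of -2.93 (Cox5b), -2.63 (Cox6b1), -2.39 (Cox8a), -2.20 (Cox7a2), -2.17 (Cox5a), -1.55 (Cox6a1) and -1.53 (Cox4i1). Cox5a and Cox5b line the matrix side of the enzyme, Cox4i1 is the subunit through which ATP inhibits it, and Cox6b1 bridges the dimer on the other side. With the length trend removed, Cox6a1 (-0.26) and Cox4i1 (-0.45) no longer passed, and the others were at -1.84 (Cox5b), -1.23 (Cox6b1), -1.07 (Cox8a), -1.01 (Cox7a2) and -0.97 (Cox5a). Ndufa4, the cytochrome oxidase subunit listed under complex I, had 316, 241 and 239 normalized CPM without Dox and 17.1, 33.4 and 26.1 with Dox. Its groups were widely separated, and it changed by -3.37 (SE 0.26, adjusted p = 8.94e-06), and by -1.93 with the trend removed.

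Isoforms of complex IV known from muscle, lung, testis or hypoxic cells were scarce. Cox6b2, the testis form of Cox6b1, had 27.2, 21.7 and 13.1 normalized CPM without Dox and 2.86, 7.62 and 14.0 with Dox, an overlap of 1 library. Its change of -1.34 did not pass (SE 0.53, adjusted p = 0.0627). It passed at -1.37 with DESeq2, at -1.53 with limma-voom, at -1.51 with no filter on low counts and at -1.97 without Dox replicate 12. Removing the length trend turned it to 0.14, which did not pass. Cox6a2, the heart and muscle form of Cox6a1, had 9.70, 6.08 and 6.44 against 5.72, 1.24 and 2.64. It did not pass at -1.22 (SE 0.66, adjusted p = 0.162), but did at -1.97 without Dox replicate 10. With the length trend removed Cox6a2 was at -0.06 and did not pass. Both genes were minor beside their widely expressed partners, which had 383 ± 37.4 (Cox6b1) and 615 ± 56.7 (Cox6a1) normalized CPM without Dox (SD, n = 3). Cox7a1, the heart and muscle form of Cox7a2, had 10, 12 and 11 counts without Dox and 0, 0 and 6 with Dox. Not tested in the main fit, Cox7a1 was tested in 5 of the 16 fits tried and passed as a fall in 1. Cox4i2, the lung form of Cox4i1, had 4, 2 and 3 counts against 0, 0 and 1. Ndufa4l2, a hypoxia-induced relative of Ndufa4, had 1, 1 and 0 counts without Dox and 0 with Dox. Cox7b2, Cox8b and Cox8c had 0 counts in all 6 libraries, which allows up to 3 counts in each.

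Cox7a2l was the 1 member of complex IV that lay higher with Dox. Its product resembles Cox7a2 but serves to join complexes III and IV into supercomplexes. Normalized CPM of Cox7a2l were 174, 165 and 176 without Dox, against 200.5, 197 and 256 with Dox. Every Dox library was above every other, yet the change of 0.34 did not pass (SE 0.16, adjusted p = 0.114). It passed at 0.44 with upper-quartile scaling (where 25.5% of all genes rose and 20.4% fell), at 0.65 with no composition factor (30.2% and 16.7%), at 0.46 among genes that reached 10 counts in each library (27.0% and 25.2%) and at 1.09 with the length trend removed. Cox7a2 itself went from 519, 441 and 375 to 90.2, 118 and 83.6, a clear separation in the other direction, at -2.20 (SE 0.20, adjusted p = 2.00e-05). The ratio of Cox7a2 to Cox7a2l counts was 2.98, 2.67 and 2.14 without Dox, against 0.450, 0.598 and 0.327 with Dox. Cox7a2 was thus the more abundant of the pair without Dox and the less abundant with Dox, a difference of ratios that was not tested.

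**Figure D4:**
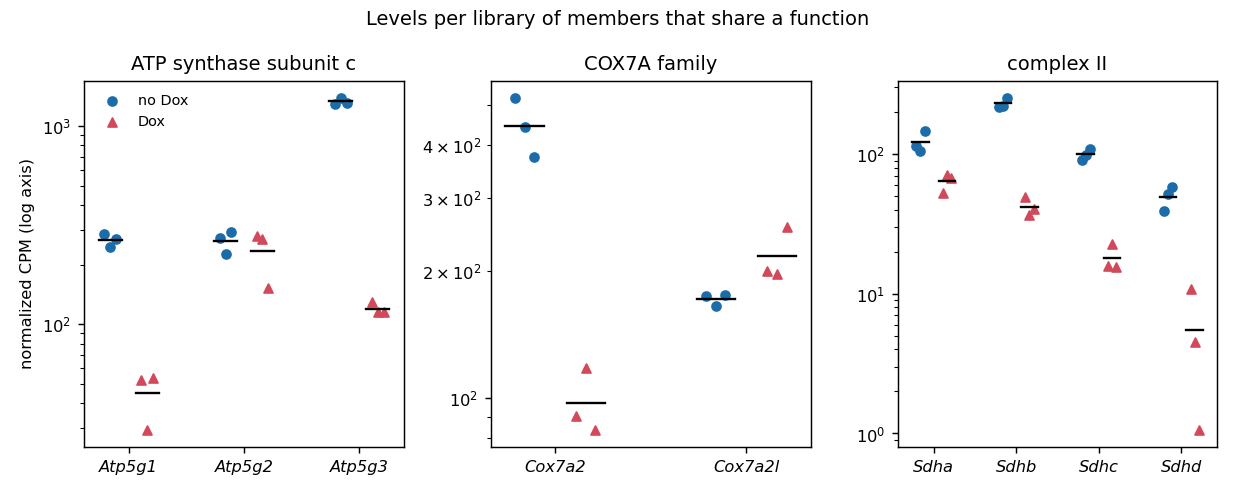
Normalized CPM (log axis) of the subunit c genes, the COX7A genes and the complex II genes, 1 point per library, with group means as black lines. Atp5g3 and Cox7a2 are far lower in the 3 Dox libraries, while Atp5g2 overlaps between the groups and Cox7a2l lies slightly higher with Dox.

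In complex V, 16 of 17 members fell, with a median log2 fold change of -1.80, and with the length trend removed 12 fell, 1 rose and the median was -0.97. The 5 subunits of the catalytic head and central stalk had a median of -1.32. They were Atp5c1 (-2.45), the rotating shaft, Atp5a1 (-1.36) and Atp5b (-1.22), the alternating subunits of the catalytic ring, and Atp5e (-1.32) and Atp5d (-1.11), at the foot of the shaft. Atp5b, which carries the catalytic sites, had 650.5, 588 and 597 normalized CPM without Dox and 242, 273 and 273 with Dox. Libraries within each group were close together, and the change of -1.22 had an SE of 0.14 (adjusted p = 9.66e-05). Atp5d and Atp5e no longer passed with the trend removed (-0.20 and 0.17), and Atp5c1 was then at -1.75.

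The stalk, ring and membrane subunits of complex V had lower medians than the head, an order that held for the small membrane subunits only before the length trend was removed (-0.72 after it, against -0.97 for the head). The 4 subunits of the peripheral stalk, which keeps the head from turning, had a median of -2.21, from Atp5j at -3.50 through Atp5pb at -2.69 and Atp5h at -1.73 to Atp5o at -1.02. Atp5j had 684, 703 and 617 normalized CPM without Dox and 42.2, 75.5 and 59.6 with Dox, with a standard error of 0.23 and an adjusted p of 3.35e-06, and was at -2.40 with the trend removed. Atp5o, which ties the stalk to the head, had 363, 343 and 319.7 against 208, 161 and 139. Both genes were separated between the groups, Atp5j by much more than Atp5o. Atp5o passed (SE 0.18, adjusted p = 0.00131) but not with the trend removed (-0.02), and Atp5h did not pass there either (-0.53). The 5 small membrane subunits, some of which help bind the enzyme into dimers at the cristae, had a median of -2.36. Among them Atp5md had 499, 496 and 499 without Dox and 25.9, 27.5 and 7.64 with Dox. The libraries without Dox were nearly equal, and the change of -4.61 (SE 0.41, adjusted p = 1.94e-05) was the largest fall in complex V, at -3.03 with the trend removed. Atp5mpl (-2.54), Atp5k (-2.36), Atp5l (-1.80) and Atp5j2 (-1.57) fell by smaller amounts, and were at -1.14, -0.72, -0.47 and -0.48 with the trend removed.

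Subunit c, which forms the proton-driven rotor ring, is made by Atp5g1, Atp5g2 and Atp5g3, which encode different import sequences and the same mature protein, and the 3 genes changed by unequal amounts with Dox. Atp5g3 had 1288, 1389 and 1313 normalized CPM without Dox, the highest mean of all members, and 129, 115 and 115 with Dox. The fall was even across libraries, at -3.47 (SE 0.15, adjusted p = 5.37e-07), and at -2.35 with the length trend removed. Atp5g1 had 287, 246 and 269 against 52.7, 29.2 and 53.5, again well apart, and changed by -2.57 (SE 0.24, adjusted p = 2.84e-05). With the trend removed it was at -2.56, below Atp5g3. The lengths used were 2675.5 bases for Atp5g1 and 718.5 bases for Atp5g3. They are medians over annotated transcripts, so this order depends on the annotation. Atp5g2 had 271, 227 and 292 against 279, 268 and 152, with groups that overlapped. Its change of -0.18 did not pass (SE 0.23, adjusted p = 0.568), was 0.14 with no composition factor, 0.037 without Dox replicate 12 and 1.10, past the threshold, with the length trend removed. Of the counts of all 3 genes, Atp5g3 made up 69.8%, 74.6% and 70.1% without Dox and 28.1%, 27.9% and 35.9% with Dox, while Atp5g2 made up 14.7%, 12.2% and 15.6% and then 60.5%, 65.1% and 47.4%. The leading source of subunit c counts was therefore Atp5g3 in each library without Dox and Atp5g2 in each Dox library. The change of shares was not tested, and it needs no scaling between libraries.

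The promoters of the 3 subunit c genes are shown because these genes make the same mature protein and changed by unequal amounts. Each window covers 250 bases before and 50 bases after the gene's start in RefSeq on GRCm38.p6, written on the gene's own strand. Capitals mark a motif of a factor known for respiratory genes, on either strand: the palindromic consensus of nuclear respiratory factor 1 and TGCGCA, a shorter motif that can overlap it without lying within it, TCAAGGTCA for oestrogen-related receptors, and the E-box CACGTG. Atp5g1 lies at chr11:96075582-96075881, Atp5g2 at chr15:102670998-102671297 and Atp5g3 at chr2:73911277-73911576, each on the minus strand.
Atp5g1: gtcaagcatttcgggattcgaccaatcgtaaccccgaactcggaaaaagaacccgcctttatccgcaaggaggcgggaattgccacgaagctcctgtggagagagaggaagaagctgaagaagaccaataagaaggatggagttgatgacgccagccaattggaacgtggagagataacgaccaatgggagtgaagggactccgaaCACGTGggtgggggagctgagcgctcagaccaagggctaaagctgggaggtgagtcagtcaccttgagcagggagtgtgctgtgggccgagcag
Atp5g2: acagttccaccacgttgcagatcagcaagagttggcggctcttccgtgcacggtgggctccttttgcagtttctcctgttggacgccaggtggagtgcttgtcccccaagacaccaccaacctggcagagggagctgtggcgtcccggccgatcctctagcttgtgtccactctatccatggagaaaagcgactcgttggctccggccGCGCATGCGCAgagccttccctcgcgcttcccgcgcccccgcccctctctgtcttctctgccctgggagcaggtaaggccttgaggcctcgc
Atp5g3: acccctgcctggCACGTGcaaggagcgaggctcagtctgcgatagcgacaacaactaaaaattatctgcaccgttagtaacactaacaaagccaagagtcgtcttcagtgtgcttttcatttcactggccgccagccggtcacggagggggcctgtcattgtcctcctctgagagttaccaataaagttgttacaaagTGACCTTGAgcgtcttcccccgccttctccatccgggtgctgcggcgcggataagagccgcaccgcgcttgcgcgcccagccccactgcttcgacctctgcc
In these windows the nuclear respiratory factor 1 palindrome began 42 bases before the start of Atp5g2, the gene that did not pass the test, and was not matched in the windows of the other 2. The oestrogen-related receptor motif, in its reverse complement, began 52 bases before the start of Atp5g3, the gene that fell the most before removal of the length trend, and E-boxes began 238 bases before the start of Atp5g3 and 44 bases before that of Atp5g1.

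Of the 90 members, 73 had a window in the RefSeq table, and 70 of these were tested. The nuclear respiratory factor 1 palindrome was found in 5 of the 70 (7.14%), in 2.20% of the 10681 tested genes with a window and in 0.971% of all 32851 windows. The shorter TGCGCA was found in 19 members (27.1%), in 15.03% of tested genes and in 7.76% of all windows. TCAAGGTCA was found in 2 members (2.86%), Atp5g3 and Sdhd, and in 0.309% of tested genes. The YY1 motif was found in 4 members (5.71%) and 1.73% of tested genes, CCGGAAGTG, for ETS factors, in 2 (2.86%) and 4.59%, and CACGTG in 7 of the 70 and 11.3%. These differences between members and tested genes were not tested. Of the members with TGCGCA, 18 were among the 65 that fell and 1 among the 5 that did not pass, while the palindrome was in 3 of the 65 and in 2 of the 5. A match describes these letters in this window only.

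Subunits and electron carriers outside the symbol patterns mostly fell as well. Of 7 such genes tested, 6 fell and 0 rose, with a median of -1.51, and with the length trend removed 4 fell and 0 rose. Ndufab1, the acyl carrier protein that is also a subunit of complex I, went from 226 ± 26.8 to 18.7 ± 9.38 normalized CPM (SD, n = 3 each), a change of -3.59 (adjusted p = 4.93e-05). Cycs, cytochrome c, changed by -2.58 (adjusted p = 6.06e-06), and Cyc1, the cytochrome c1 of complex III, by -1.19 (adjusted p = 0.000655). Atpif1, the inhibitor that stops complex V from running backwards, had 861 ± 68.3 without Dox and 352 ± 49.1 with Dox, at -1.29 (SE 0.16, adjusted p = 0.000125). The median of the catalytic head was -1.32. The change of Atpif1 was 0.094 with the length trend removed.

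Assembly factors, which build the complexes but are no part of them, changed in both directions. Of 48 tested factors for complexes I to V, 22 fell and 3 rose, with a median of -0.99. Among all tested genes, 22.1% fell and 23.6% rose. With the length trend removed 13 factors fell and 6 rose, against 21.7% and 22.0% of all genes. For complex I, 8 of 16 fell and 2 rose. Ndufaf2 fell by 2.57 (-1.33 with the trend removed), while Acad9 rose by 1.52 and Dmac2 by 1.13. For complex IV, 11 of 21 fell, among them Cox16 (-4.08), Cox18 (-3.20), which helps insert a mitochondrially encoded subunit, and the copper carrier Cox17 (-2.26), and Taco1, a translational activator of a mitochondrially encoded subunit, rose by 2.52. No factor of complex II passed (0 of 4), for complex III 1 of 3 fell, Bcs1l (-1.81), and for complex V 2 of 4 fell, Fmc1 and Tmem70. With the trend removed Bcs1l (-1.43) and Fmc1 (-0.58) did not pass, and Sdhaf4 of complex II rose (2.38, against 1.22 and no call before). Cox16 was then at -2.92 and Cox18 at -2.61. Of 13 genes for the synthesis of coenzyme Q, the ubiquinone that carries electrons to complex III, 2 fell (Coq7 at -2.36 and Coq2 at -1.04) and 1 rose (Coq8a at 3.04), while with the trend removed Coq7 was at -1.44, Coq2 did not pass (-0.70) and Coq9 rose (1.09).

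Among genes that feed the chain, 11 of 18 of the citric acid cycle and pyruvate dehydrogenase fell and 1 rose, with a median of -1.02 (10 and 2 with the length trend removed). Idh3b fell by 2.64, Pdhb by 1.76, Mdh2 by 1.48 and Cs, citrate synthase, by 0.89, while Ogdh, a subunit of oxoglutarate dehydrogenase, rose (adjusted p = 0.00145). Of 12 carriers and import pore genes, 11 fell and 0 rose, with a median of -1.87 (10 and 0 with the trend removed). Slc25a5, which exchanges ATP for ADP across the inner membrane, went from 637 ± 10.5 to 24.5 ± 3.88 normalized CPM (SD, n = 3 each), a change of -4.70 (SE 0.18, adjusted p = 5.37e-07), or -4.05 with the trend removed. The phosphate carrier Slc25a3 fell by 1.83 and the import receptor Tomm20 by 2.61. Of 16 regulators of mitochondrial genes, 3 fell, namely Myc (-3.89), the mitochondrial DNA packaging factor Tfam (-1.79) and Yy1 (-0.87), and 1 rose, the mitochondrial DNA polymerase Polg (1.19, and 0.48 and not past the threshold with the trend removed). Nrf1 (0.17), Gabpa (-0.88), Esrra (-1.18), Ppargc1a (2.55) and Ppargc1b (-0.16) were among those that did not pass. After removal of the length trend, 5 regulators fell and 0 rose: Gabpa (-1.04) and the mitochondrial RNA polymerase Polrmt (-1.36) passed as well, and Tfam was at -0.85. These lists of genes that work with the chain were chosen with earlier results of these data known. Among all tested genes 22.1% fell and 23.6% rose, or 21.7% and 22.0% with the length trend removed. Before the trend was removed, falls among coenzyme Q genes and regulators were no more frequent than among all tested genes.

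**Figure D5:**
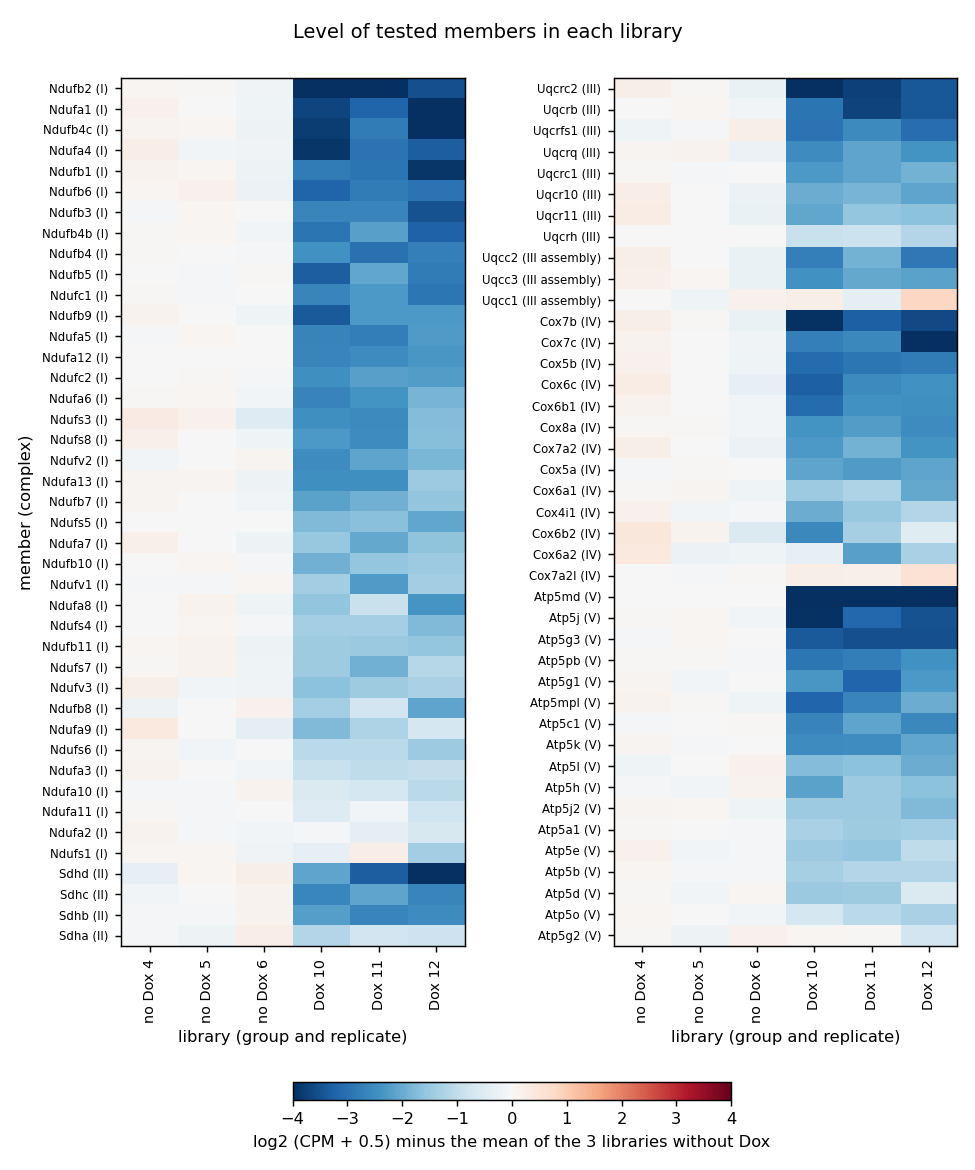
Level of tested members (rows, by complex and then by fold change) in each of the 6 libraries (columns), as log2 of normalized CPM plus 0.5, minus the member's mean over the 3 libraries without Dox. The Dox columns are lower for the members shown that fell, while Cox7a2l is higher in all 3 Dox libraries.

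Of the 76 members that fell, 74 also fell, at the same threshold, under each of the other scalings, filters, tools and left-out libraries that tested them. The exceptions were Ndufa10, an accessory subunit that did not pass with no composition factor (-0.46), and Ndufa9, an accessory subunit near the ubiquinone channel that did not pass when replicate 4 was left out (-1.07) or with the length trend removed (-0.65). Counting the fit with the length trend removed as well, 56 of the members with a length fell in each fit that tested them, and 54 of these were tested in all 16 fits. By complex these 56 were 24 of complex I, 4 of complex II, 6 of complex III, 2 of its assembly factors, 8 of complex IV and 12 of complex V.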

How the data were processed

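Gene expression was measured in 6 spleen libraries made with a 3′ mRNA kit (QuantSeq, forward), per the labels' protocols, in which 1 fragment is expected per transcript, and levels were not divided by length. The authors deposited raw counts in 1 column per library, with genes named by Entrez ID. STAR, featureCounts and the genome build GRCm38 are named in the submitters' processing notes, and the annotation, strand setting and treatment of reads with several matches are not given in the sources used here. All columns were matched to samples by title, and 0 columns were left over. Because no molecular identifiers are stated, floors of 3 counts cover counting error only.

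Of 40808 gene IDs, 39374 (96.5%) had a symbol in the RefSeq gene table of GRCm38.p6. The test was that of edgeR 4.0.16, run in R 4.3.3 (filterByExpr with a minimum count of 10 and a minimum total of 15, TMM factors, glmQLFit and glmQLFTest, no covariate), with Benjamini-Hochberg adjustment over all tested genes and a threshold of 0.05. The script was tested on simulated data. The standard error of a log2 fold change is its size over the square root of F. Transcript length was the median over the basic GENCODE transcripts of a gene, and its trend was a lowess curve (span 0.5) used as an offset. The members and the gene lists were chosen with earlier results of these data known. Genes were named by rule: in each complex the 2 members with the highest mean and the 2 with the most positive and the 2 with the most negative change, all of complex II, the isoform genes, the Uqcc factors and Atpif1. Other members and list genes, the assignment of members to roles, and the mitochondrial ribosomal RNAs were chosen after their values were seen. Alternatives tried were RLE and upper-quartile factors, library size only, 2 other filters, leaving out mitochondrial, haemoglobin and antigen receptor genes, DESeq2 1.42.0, limma-voom (limma 3.58.1), an adjusted p under 0.01, leaving out each library, and removing the length trend. The values of 1 member are not reported here.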

Additional observations from a re-analysis of the deposited data

How the results depend on the processing

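No paired analysis was possible because no replicate number occurs in both groups. With each library left out in turn, 75 to 78 members fell and 0 rose (complex I 35 to 37, complex II 4, complex III 8, its assembly factors 2, complex IV 10 to 12, complex V 16). Median log2 fold changes were then -2.31 to -2.14 over all members, -2.32 to -1.90 for complex I, -2.55 to -2.42 for complex II, -2.39 to -2.17 for complex III, -2.45 to -2.16 for its assembly factors, -2.40 to -2.26 for complex IV and -1.92 to -1.79 for complex V. With library size only, all tested genes shifted up by 0.31 (median, log2 scale). The medians were then -1.87 over all members, -1.74 for complex I, -2.15 for complex II, -1.93 for complex III and -1.88 for complex IV, and 1 member, Cox7a2l of complex IV, rose. That 1 member also rose with upper-quartile factors and among genes that reached 10 counts in each library, where the median of complex III was -2.01. With no filter on low counts the medians were -2.34 over all members, -2.24 for complex I and -2.53 for complex IV.

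With the length trend removed, 6 members rose (3 of complex I, 1 of complex III, 1 of complex IV and 1 of complex V). The medians were then -1.01 over all members, -0.92 for complex I, -1.99 for complex II, -1.35 for complex III, -1.02 for its assembly factors, -1.01 for complex IV and -0.97 for complex V. Log2 fold changes turned to 0.95 for Ndufa2, 0.45 for Uqcrh, 1.10 for Atp5g2, 0.14 for Cox6b2 and 0.094 for Atpif1. Atp5g2 also turned with library size only (0.14) and without Dox replicate 12, where it was 0.037 in a range of -0.35 to 0.037 over left-out libraries. Uqcc1 turned to -0.064 without Dox replicate 12, in a range of -0.064 to 0.54. The cause of these turns was not tested.

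Summed normalized CPM with library size only were 6458 without Dox and 2094 with Dox for complex I, 1610.1 and 542 for complex III and 7402 and 2361 for complex V, and with Dox 145 for complex II and 1421 for complex IV. With upper-quartile factors complex V had 7971 and 2193. Leaving out mitochondrial, haemoglobin and antigen receptor genes makes library totals smaller, and gave 8874 and 2301 for complex I, 619.7 and 159 for complex II, 2214 and 596 for complex III, 206 and 74.5 for its assembly factors, 7201 and 1561 for complex IV and 10161 and 2595 for complex V. Depth limits the untested isoform genes, where 3 counts correspond to 0.309 to 0.608 normalized CPM.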
